A study of Oryzias latipes with 4 samples.

Results

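The long spliced models were 161 of the 93896 transcript models of a medaka (Oryzias latipes) table. Each had a transcript length below its genomic span, a span of at least 50000 bases, and a mean of at least 1 FPKM over 4 libraries. Length below span was taken to mean that a model holds introns, since exons are not listed. FPKM are fragments scaled to model length and to all mapped fragments of a library. The members were thus selected on measured FPKM as well as on span, so abundance itself is given below as a description. RNA-seq and Ribo-seq, in which fragments shielded by ribosomes are sequenced, had 2 libraries each, labelled LD_RNAseq and LD_Riboseq. All 4 were from female fish bought from a dealer, of which hypothalamus, pituitary and the ventral telencephalon were taken; the fish had been kept in SD and moved to LD 16 h earlier. The labels give no strain or age and do not spell out SD and LD. All libraries share this condition, so the contrast was between assays. No label ties the replicates to different fish; every p-value below therefore reflects the scatter of these libraries alone, possibly a technical one.

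A gene with a wide span is mostly intron. RNA polymerase has to copy the whole span, the introns are spliced out in the nucleus, and cytoplasmic ribosomes read only the joined exons. In vertebrates many of the widest genes encode adhesion molecules, guidance receptors and channels of neurons. Footprints, the fragments that ribosomes shield, therefore come from the mature part of such a locus.

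The long models spanned 50106 to 110888 bases, with a median of 59991, and 4 spanned at least 100000 bases. Their transcripts were 186 to 40101 bases long, with a median of 1158. The median model had 54.1 bases of span for each base of transcript, against 5.73 among the 47417 multi-exon models of smaller span that passed the same abundance limit. Both sets were chosen by span, so this contrast follows in part from the rule. The long models lay in 159 loci on all 24 chromosomes, with 1 to 16 models on a chromosome, and 2 loci held more than 1 of them. In all, 399 multi-exon models had such a span at any abundance, and 238 of these stayed below the limit. The 3 models just inside the span limit had 50106, 50140 and 50215 bases and the 3 just outside it 49707, 49772 and 49884. At the abundance limit, the means just inside were 1.03, 1.04 and 1.06 FPKM and those just outside 0.949, 0.959 and 0.999.

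**Figure D1:**
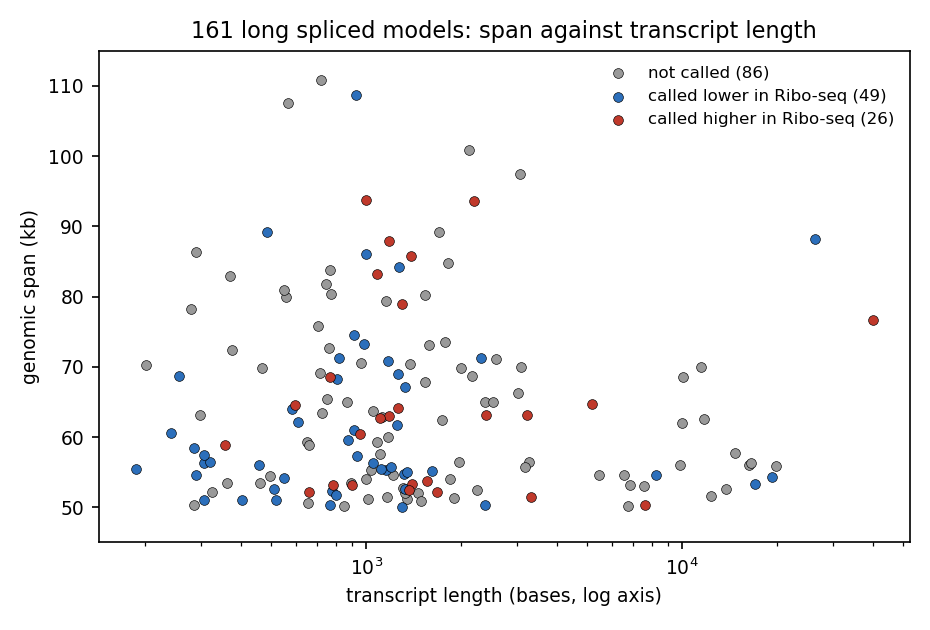
Genomic span in kb against transcript length in bases (log axis) of the 161 long spliced models, each point 1 model coloured by its call in Ribo-seq against RNA-seq. Models called higher span 50327 to 93761 bases and those called lower 50106 to 108748, and the transcripts of 23 models reach 5000 bases or more.

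The label of the models rests on length below span, which was the criterion, so splicing was inferred and not seen in exons. Their completeness varied. Of the 161, 54 matched a RefSeq gene, each covering at least 50% of the other, and 31 of these genes had a symbol. Another 54 lay with at least 95% of their span inside a single larger gene, of which they covered a median of 24.5%. A further 43 overlapped genes in part, and 10 overlapped none. Whole protein-coding genes lay inside 25 of the models, and 4 held at least 2 of them. The models overlapped a median of 3 other models, at most 9, and 7 overlapped none. At least 1 other model was overlapped by 95.7% of the long models and 71.4% of all tested models. The share was 77.6% of the smaller-span models matched to them below on RNA-seq FPKM and length. Overlap was not part of that match, nor was span. Among multi-exon models the share was 91.9% from 20000 to 30000 bases of span, 94.6% from 30000 to 40000 and 94.8% from 40000 to 50000. A high share was thus not particular to spans of at least 50000 bases. Strand is not given, so reads of overlapping or antisense transcripts cannot be told apart, and a gene name below says where a model lies, not that it is that gene's whole mRNA.

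Transcript lengths were a multiple of 3, as coding sequences are, in 140 of the long models, or 87.0%. The share was 65.8% among 161 smaller-span multi-exon models matched to them on RNA-seq FPKM and length. It was 74.6% over all tested models and 73.1% over all smaller-span multi-exon ones. By span, it was 83.2% from 30000 to 40000 bases and 84.7% from 40000 to 50000. In the long classes it was 81.5% up to 60000 bases, 91.2% up to 80000 and 95.7% above. High shares were thus not particular to spans of at least 50000 bases. Among models of 2000 to 5000 bases the share was 94.1% of 17 long models and 33.3% of 18 matched ones. Among models of 5000 bases or more it was 39.1% of 23 long and 52.2% of 23 matched models. The excess of such lengths over the matched models was thus in models below 5000 bases.

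Depth is not known from FPKM. Those of the tissue's markers that had a named model were present in every library. By RNA, snap25 led the neuronal list, glul the glial list and cga the pituitary list. The 6 cell type lists, of 6 to 12 genes, had 3 to 6 models each, so part of the markers was not seen. No marker model of these lists was listed at 0. None of these marker models was a long model.

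In RNA-seq the long models had low to moderate levels, with medians of 3.83 and 3.58 FPKM in replicates 1 and 2 and a range of 0.216 to 38.9. In Ribo-seq the medians were 1.24 and 1.79 FPKM and the highest values 70.4 and 112. None was listed at 0 in RNA-seq, and 23 and 17 were listed at 0 in Ribo-seq replicates 1 and 2, 10 of them in both. The matched models had RNA-seq medians of 3.77 and 3.69 FPKM and Ribo-seq medians of 1.39 and 2.03, with 9 and 16 listed at 0. Over all 50625 tested models, 7915 and 8294 were listed at 0 in Ribo-seq replicates 1 and 2. Zeros in both were found in 10.4% of all tested models, 6.21% of the long and 3.73% of the matched ones. A listed 0 may also stand for an estimate that failed. In tissue pieces like these, fewer cells that express a gene and less RNA per cell cannot be told apart.

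Summed over all models with a mean of at least 1 FPKM, the long models held 0.149% and 0.154% of the FPKM in the RNA-seq libraries and 0.0717% and 0.0932% in the Ribo-seq libraries. The assays' values did not overlap: the mean share was 0.151% ± 0.00400 for RNA and 0.0825% ± 0.0152 for footprints (SD, n = 2). No test is given, since the members were selected on FPKM, 67 of them through RNA-seq alone. Among multi-exon models alone the shares were 0.176% ± 0.00344 and 0.0860% ± 0.0161. The matched models held 0.146% and 0.156% in RNA-seq and 0.0925% and 0.119% in Ribo-seq, so that their share was also lower in both Ribo-seq libraries.

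Footprints were compared with RNA in each model on the scale of log2(scaled FPKM + 1), as Ribo-seq minus RNA-seq, with limma fitted across all 50625 models of at least 1 FPKM. Differences are relative to this scaling, which uses the models above 0 in every library and leaves the median of all tested models at -0.20, and the scale understates differences of low models. Of the 161 long models, 26 were called higher and 49 lower at an adjusted p below 0.05, or 16.1% and 30.4%. The background was 23.9% higher and 33.7% lower over all tested models. The long models had a median log2 difference of -0.28, against -0.20 for all tested models and -0.13 for multi-exon models of smaller span. In deposited FPKM, both Ribo-seq values lay above both RNA-seq values in 18 long models, or 11.2%, against 17.7% of all tested models, and below them in 110, or 68.3%, against 58.0%. Without scaling, 10 of the 161 were called higher and 73 lower, where the background was 4.79% and 41.8%. The shares of the long models thus lay slightly above the background in both directions without scaling, and below it in both with scaling. The 161 matched smaller-span models described below had 12 higher and 70 lower without scaling. A share above the background there was thus not particular to the long models. The abundance limit bears on direction: 67 models met it in RNA-seq alone and 1 in Ribo-seq alone. Most of the 49 lower calls were among those 67, though the calls of the sdk1 and dst models were not. For those 67, a lower call and its p-value rest in part on this selection. They include the models of csmd1, tenm2, cacna1a, grik3, kctd16, auts2, mef2a and adarb1 described below.

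The number of calls fell with either RNA-seq library left out, and did not fall with either Ribo-seq library left out. With 1 library left in an assay, the scatter between replicates is that of the other assay's pair alone. The median difference of the long models was -0.32 and -0.26 without RNA-seq replicates 1 and 2. It was -0.15 and -0.20 without Ribo-seq replicates 1 and 2, against -0.28 with all libraries. With RNA-seq replicate 1 left out, limma called 2 long models higher and 24 lower, and with replicate 2 left out again 2 and 24; over all tested models the counts fell to 1543 and 9458, and to 1529 and 9543. Leaving out each library in turn, 2 of the 26 higher calls and 23 of the 49 lower calls were kept every time. The higher ones kept were the slit1 model and a model that overlaps part of edil3. The lower ones kept had all met the abundance limit through RNA-seq alone. That limit was set over all 4 libraries in each of these runs, so the selection in part set their direction every time.

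**Figure D2:**
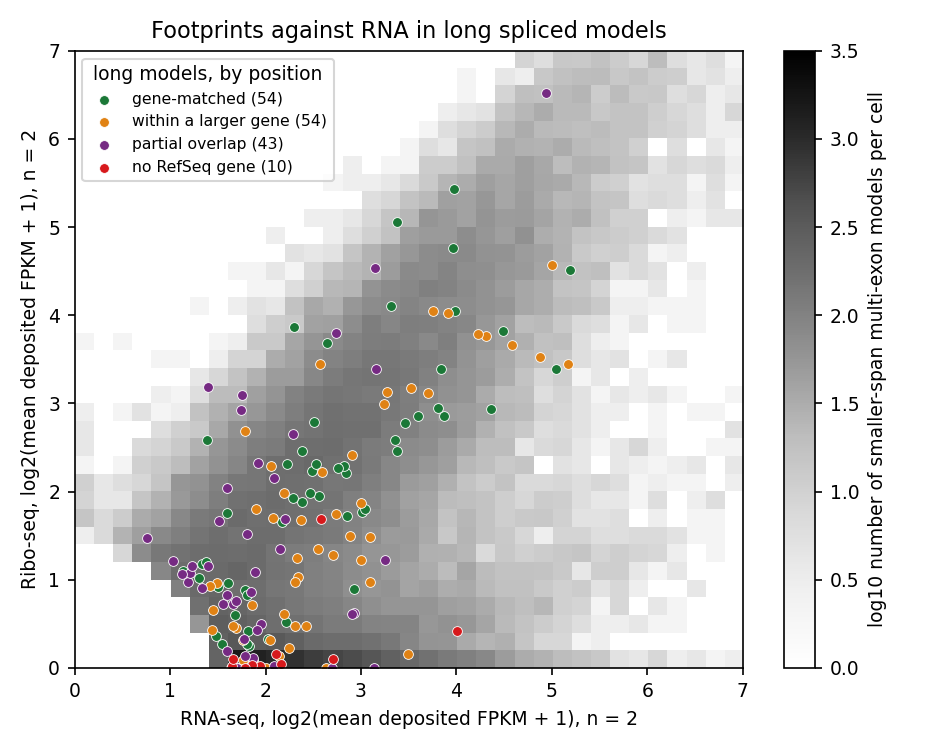
Mean Ribo-seq against mean RNA-seq level as log2(deposited FPKM + 1), n = 2 libraries for each axis; points are the 161 long models coloured by position relative to RefSeq genes, and the grey cells give the number of smaller-span multi-exon models on a log10 scale. The long models lie within the cloud of smaller-span models, and 9 of the 10 without a RefSeq gene lie low on the Ribo-seq axis.

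Beside smaller-span models of the same RNA level and length, 26 long against 43 matched models were called higher, and 49 against 56 lower, of 161 each. The median difference was -0.28 in the long and 0.01 in the matched models. Within pairs, the long model lay below its match in 88 and above it in 73, with a median within-pair difference of -0.10. The quartiles overlapped widely, at -1.15 and 0.32 for the long models and -1.24 and 0.79 for the matched ones. The sign of the comparison depended on what was matched: with pairs matched on the mean of all 4 libraries and length, the medians differed by 0.10 with the long models above. That mean includes the Ribo-seq values compared here. Other matches on RNA-seq FPKM and length gave -0.20 (5 neighbours), -0.27 (within the position class) and -0.33 (grid of quintiles). These values describe the models, which are not replicates, and no test was made.

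Over all multi-exon models the difference was lowest at the shortest spans. The median was -1.46 below 1000 bases of span and -0.68 from 1000 to 2500 bases. It stayed between -0.04 and 0.07 in each class from 2500 to 50000 bases. It was -0.40 in 81 models of 50000 to 60000 bases, -0.11 in 57 of 60000 to 80000 and -0.27 in 23 wider ones. Among the long models, Spearman's rho of span and difference was 0.08 (161 models of the same 4 libraries, a description), and 0.16 over the smaller-span models. That of transcript length and difference was 0.36, and it was likewise 0.36 over the smaller-span models.

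**Figure D3:**
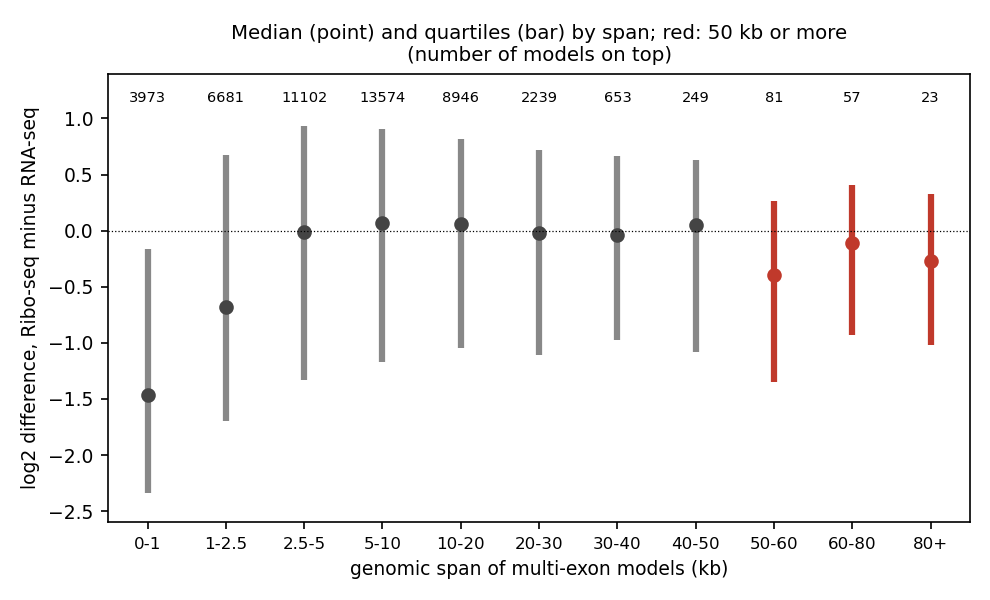
Median (points) and quartiles (bars) of the log2 difference, Ribo-seq minus RNA-seq, of multi-exon models by genomic span in kb, with the number of models on top and spans of 50 kb or more in red. Medians lie between -0.04 and 0.07 from 2.5 to 50 kb and between -0.40 and -0.11 above, inside the quartiles of the narrower classes.

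Transcript length separated the long models more than span. The 25 with under 500 bases of transcript had a median difference of -1.40, and 7 of them were listed at 0 in both Ribo-seq libraries. Of the 25, 1 was called higher and 12 lower, or 4% and 48.0%. Among all tested models of that length, 12.7% were called higher and 47.7% lower. The median was -0.79 in 44 models of 500 to 1000 bases, 0.04 in 52 of 1000 to 2000, 0.26 in 17 of 2000 to 5000 and -0.13 in 23 longer ones. The smaller-span models had medians of -1.22, -0.04, 0.44, 0.36 and 0.07 in these classes.

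The difference also varied with position relative to genes. The 10 long models outside any RefSeq gene had a median difference of -1.53, with 9 called lower and 0 higher. All 9 passed the abundance limit through RNA-seq alone, so their direction was set in part by the selection. The 54 inside a larger gene had -0.65, with 5 higher and 18 lower, the 43 with partial overlap 0.00, with 10 and 11, and the 54 gene-matched ones 0.04, with 11 and 11. Of all tested models outside genes, 76.4% were called lower. Inside a larger gene, 9.26% of long models were higher and 33.3% lower, against 19.9% and 34.6% of all. With partial overlap the shares were 23.3% and 25.6%, against 23.5% and 28.6%. In gene-matched models they were 20.4% and 20.4%, against 46.7% and 9.73%. Smaller-span models followed the same order at its ends, with medians of -1.64 outside genes and 0.66 in gene-matched models. Matched within the same class on RNA level and length, smaller-span models had medians of -1.52, -0.56, 0.02 and 0.31. Of the matches of gene-matched long models, 21 were called higher and 6 lower. Paired without regard to position, the gene-matched long models had a median within-pair difference of 0.00, with 27 below and 27 above, and those inside a larger gene -0.26, with 32 below and 22 above. The position classes were set after seeing the data.

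**Figure D4:**
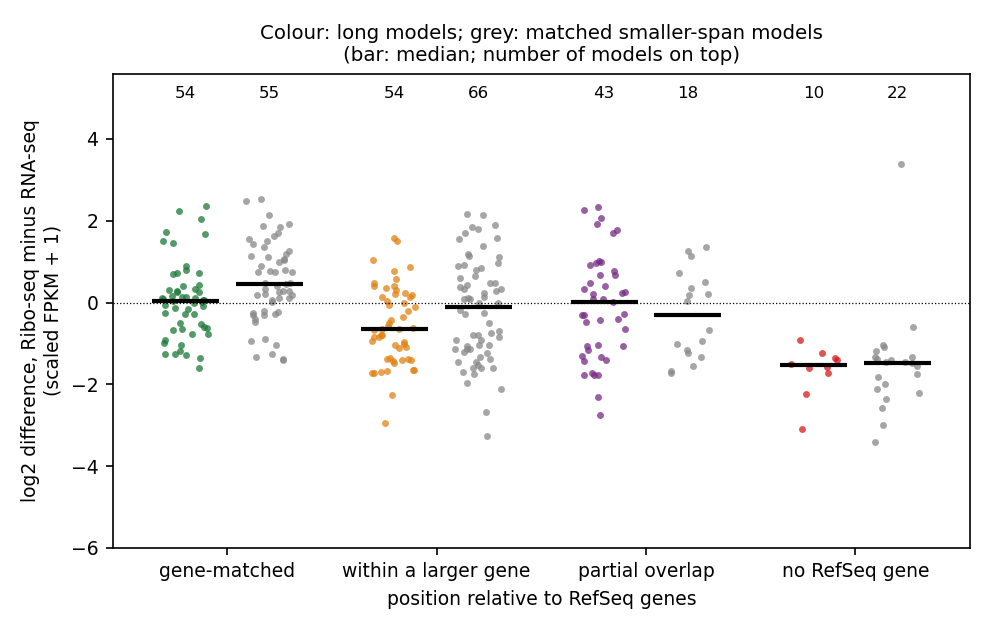
Log2 difference, Ribo-seq minus RNA-seq, of the 161 long models (colour) and of 161 smaller-span models matched on RNA-seq FPKM and length (grey), split by position relative to RefSeq genes, with medians as bars and the number of models on top. Both sets are lowest outside genes (medians -1.53 and -1.47), and in gene-matched models the medians are 0.04 and 0.45.

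Among the named long genes called higher, slit1 had the largest difference. It encodes a secreted ligand that repels growing axons through Roundabout receptors, and its model (chromosome 15, 22981528 to 23044696, 3231 bases of transcript) had 4.07 and 3.76 FPKM of RNA and 10.9 and 16.4 of footprints. Both footprint values lay above both RNA values. The log2 difference was 2.23 ± 0.15 (SE; limma, adjusted p = 0.0039), and the call held under every scaling and without each library. The receptor genes held 3 long models. A model inside robo1 had 10.2 and 10.8 FPKM of RNA and 6.74 and 9.37 of footprints, a difference of 0.36 that did not pass (limma, adjusted p = 0.11). Inside robo2 lay the widest of all long models (chromosome 13, 9053820 to 9164707, with only 717 bases of transcript), at 20.2 and 17.5 FPKM of RNA and 10.1 and 15.01 of footprints. Its difference was 0.18 (limma, adjusted p = 0.32). Another model, with 55.2% of its span in robo2, had 3.25 and 2.33 FPKM of RNA and 3.56 and 4.45 of footprints, and was called higher at 1.02 (limma, adjusted p = 0.019). That call was lost with either RNA-seq library left out. The differences of the first 2 models turned sign with scaling, to -0.36 and -0.57 in deposited FPKM. The difference between the models was not tested.

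Further guidance receptors had differences at or below 0. The model inside dcc, the netrin receptor gene, had 5.27 and 4.46 FPKM of RNA and 1.04 and 2.04 of footprints, a difference of -0.66 (limma, adjusted p = 0.060), called lower with upper quartile scaling and in deposited FPKM. The epha7 model, of an ephrin receptor, had 5.16 and 4.64 against 2.06 and 3.68 FPKM, a difference of -0.02. Neither was called, although the footprint values of both lay below both RNA values in deposited FPKM.

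Adhesion genes of neurons held calls in both directions. The list of synaptic adhesion and cell recognition genes held 13 long models, 11 of them inside the gene and 2 matched to it. Of these 13, 2 passed as higher and 3 as lower, against a background of 23.9% and 33.7%, and the median was -0.66. The 54 long models inside a larger gene had a similar median of -0.65, with 9.26% higher and 33.3% lower. Over the whole series, 8 tested models named for genes of this list had a median of 0.69, with 3 higher and 0 lower. That list took in robo1, robo2, dcc and epha7. Higher were the models inside cadm3, a nectin-like adhesion gene (4.72 and 5.14 FPKM of RNA, 10.3 and 9.60 of footprints, difference 1.58), and tenm1, a teneurin (13.4 and 11.6 against 14.3 and 16.8 FPKM, difference 1.05). The cadm3 call held in deposited FPKM and was lost with either RNA-seq library left out. Lower were the models inside csmd1, sdk1 and tenm2. The csmd1 model, of only 240 bases, had 11.1 and 9.48 FPKM of RNA, and 0 and 0.230 of footprints. Its difference was -2.94 ± 0.21 (SE; limma, adjusted p = 0.0039), and it kept its call without each library. The csmd1 and tenm2 models met the abundance limit through RNA-seq alone, so the selection in part set their direction. A 369-base model inside csmd3, the paralogue, had more RNA, 30.8 and 38.9 FPKM, and 5.17 and 14.7 FPKM of footprints, a difference of -1.11 that did not pass (limma, adjusted p = 0.075) but was called lower with upper quartile scaling and in deposited FPKM. The teneurin models had opposite calls with scaling, but the tenm1 call was lost in deposited FPKM and with either RNA-seq library left out, and the tenm2 call was lost without either RNA-seq library or Ribo-seq replicate 1. The tenm2 model had 2.21 and 2.11 FPKM of RNA and 0.161 and 0.624 of footprints, a difference of -0.84. Whether the teneurin models differ was not tested.

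At the top of this group by abundance, the model inside adgrb3, an adhesion receptor gene, had 31.1 FPKM of RNA in both libraries and 14.1 and 31.4 FPKM of footprints, a difference of 0.23 that did not pass and turned to -0.54 in deposited FPKM. nfasc, which encodes neurofascin of the axon initial segment, had 17.2 and 22.02 FPKM of RNA and 4.23 and 9.09 of footprints. Its difference of -0.77 did not pass (limma, adjusted p = 0.082) but was called lower with upper quartile scaling (adjusted p = 0.032) and in deposited FPKM (adjusted p = 0.043).

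Of 3 models inside channel and receptor genes, 2 were called lower, where 33.7% of all tested models were. With 3 models, this count cannot be told from that share. Models inside cacna1a, the pore subunit of a neuronal calcium channel, and grik3, a kainate receptor subunit, had RNA means of 3.76 and 3.13 FPKM and footprint means of 0.166 and 0.240, with differences of -1.69 and -1.40 (limma, adjusted p = 0.0079 and 0.010). They were short, at 459 and 510 bases, and their calls were lost with either RNA-seq library left out. Like the kctd16 model that follows, both met the abundance limit through RNA-seq alone, so the selection in part set their direction. kctd16, of a GABA-B receptor subunit, was at 2.32 and 1.90 FPKM in RNA-seq and listed at 0 in both Ribo-seq libraries; its difference of -1.35 was called lower, also without each library.

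The other lists held few long models. For cytoskeleton and spectrin genes the 1 long model, dst, was called lower. The 2 of transcription and chromatin genes, auts2 and mef2a, were called lower at -1.09 and -1.25; the mef2a model had 405 bases and was listed at 0 in 1 Ribo-seq library. Not called were 1 RNA-binding gene model (msi2, 0.04), 2 of kinases and related genes (prkcb and erbb4, 0.30 and 0.41) and 1 of matrix genes (lama5, 0.78). The list of synaptic scaffold and vesicle genes held none. Over all lists, 23 long models were counted, 3 higher, 8 lower and 12 neither, with a median of -0.60. Of the lower ones, the models of csmd1, tenm2, cacna1a, grik3, auts2 and mef2a met the abundance limit through RNA-seq alone. The selection in part set their direction, while the sdk1 and dst models met the limit in both assays. All tested models had 23.9% higher, 33.7% lower and a median of -0.20. Most of the 23 lay inside a larger gene, where the 54 long models had a median of -0.65. With either RNA-seq library left out, 1 of these 23 was called, against 11 with all libraries. The uncalled msi2, prkcb and erbb4 models turned to -0.49, -0.45 and -0.30 in deposited FPKM.

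Other named genes called higher were sez6, snd1, itfg1, arl15 and tln1. sez6, which encodes a membrane protein of neurons, had 16.3 and 13.2 FPKM of RNA and 22.1 and 62.2 of footprints, a difference of 2.05 ± 0.38 (SE; limma, adjusted p = 0.016). Its Ribo-seq libraries lay far apart, at 42.1 ± 28.4 FPKM (SD, n = 2), on a model of 357 bases. snd1 encodes an RNA-binding nuclease and had 14.4 and 14.8 FPKM against 19.2 and 33.1, a difference of 1.51. The itfg1 model had 8.79 and 9.09 against 10.7 and 21.6 FPKM, a difference of 1.44. For arl15, a small GTPase gene, and tln1, the talin gene that ties integrins to actin, the differences were 0.90 and 0.70, and the deposited FPKM of the assays overlapped. None of these 5 was called in deposited FPKM or with either RNA-seq library left out, and tln1 was not called with upper quartile scaling.

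Lower by the same rule was dst alone, which encodes the cytoskeletal linker dystonin. Its model had 7.30 and 7.16 FPKM of RNA and 2.21 and 2.76 of footprints, a difference of -0.60 ± 0.17 (SE; limma, adjusted p = 0.049), and the call was lost without each library in turn. adarb1, an RNA-editing deaminase gene spanning 84271 bases, had 2.32 and 2.11 against 0.543 and 0.490 FPKM, a difference of -0.65 called with all libraries (limma, adjusted p = 0.040) but lost without either RNA-seq library and without Ribo-seq replicate 2. inpp4b, a lipid phosphatase gene of 89162 bases, had 6.32 and 6.09 against 2.202 and 2.38 FPKM and was not called (-0.49). trps1, a zinc finger repressor gene, had 1.63 and 1.30 against 0.857 and 1.19 FPKM, a difference of 0.15 that turned to -0.29 in deposited FPKM.

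**Figure D5:**
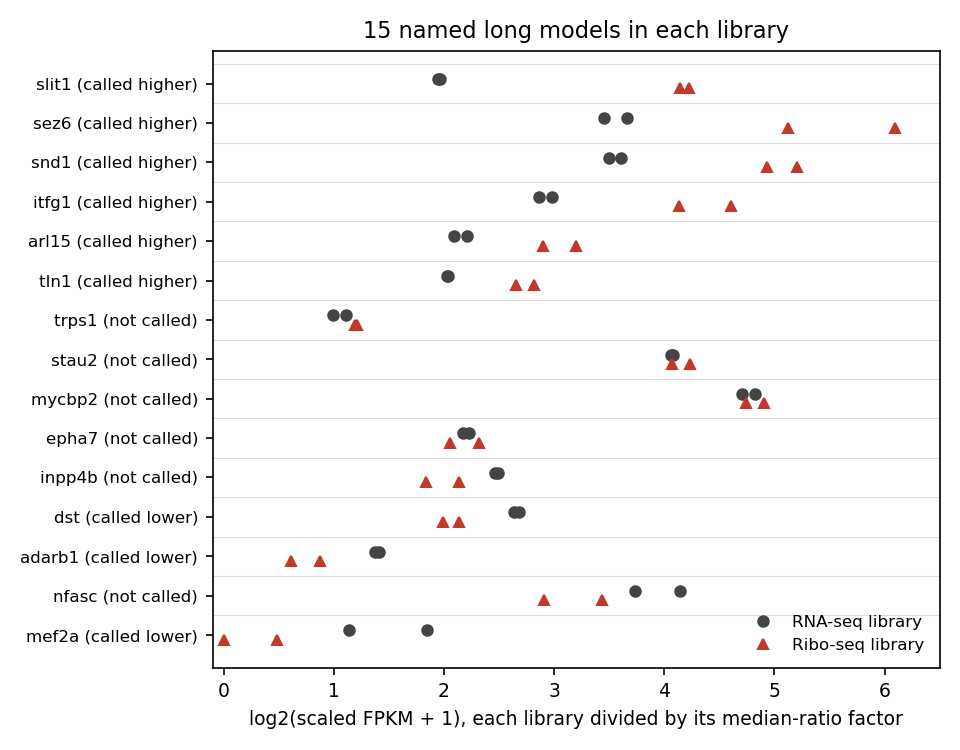
Values of the 15 named long genes in each library as log2(scaled FPKM + 1), RNA-seq as circles and Ribo-seq as triangles, ordered by the log2 difference. The Ribo-seq values of slit1 lie farthest above its RNA-seq values, and those of mef2a farthest below.

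Several models with the largest differences only overlapped a gene in part; they were chosen after their values were seen. A 767-base model across 68519 bases of chromosome 9 (14375917 to 14444435), with 32.0% of its span in edil3, had the highest footprint level of all long models. Its FPKM were 30.3 and 29.2 for RNA and 70.4 and 112 of footprints, a difference of 2.33 ± 0.13 (SE; limma, adjusted p = 0.0039). edil3 encodes a secreted integrin-binding protein. A model with 76.6% of its span in negr1, an adhesion gene, had 7.85 and 7.90 against 16.0 and 28.3 FPKM, a difference of 2.07. One with 35.9% in ctnna2, the neuronal alpha-catenin gene, had 2.501 and 2.25 against 5.595 and 9.52 FPKM, a difference of 1.92. A model that holds the whole apln gene, of the peptide apelin, in 38.1% of its span had 1.45 and 1.80 against 4.92 and 11.3 FPKM, a difference of 2.27. All 4 were also called higher in deposited FPKM, and all but the edil3 one lost the call with either RNA-seq library left out.

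The 23 models with 5000 bases or more of transcript had a median difference of -0.13, with 3 called higher, 4 lower and quartiles of -0.41 and 0.13. The calls were 13.0% and 17.4%, against 22.2% and 18.7% of all tested models of that length, whose median was 0.06. The RNA level of these 23 was the highest of the long models' length classes, with a median of 9.26 FPKM. mycbp2, a very large ubiquitin ligase of axons, had 35.0 and 36.0 FPKM of RNA and 16.8 and 26.8 of footprints over 13700 bases. Its difference was 0.06 ± 0.14 (SE; limma, adjusted p = 0.73) and turned to -0.19 with upper quartile scaling and -0.72 in deposited FPKM. The lipid transfer genes vps13c and kiaa1109 had differences of -0.16 and 0.27, the chromatin remodeller srcap -0.10, the ciliary dynein heavy chain dync2h1 0.14 and fryl 0.00, none of them called; in deposited FPKM all 5 were below 0, from -0.89 to -0.47. The longest transcript, 40101 bases within 76681 bases of chromosome 10, had 7.78 and 8.06 against 7.11 and 11.9 FPKM and was called higher at 0.91. The next longest, 26256 bases in 88259 bases of chromosome 24, had 30.8 and 33.3 against 7.46 and 11.5 FPKM and was called lower at -0.93. Both calls were lost with either RNA-seq library left out, and the deposited FPKM of the assays overlapped in the longest transcript. stau2, of an RNA transport protein, was shorter, at 1344 bases, and had 21.95 and 20.97 against 11.6 and 14.6 FPKM, a difference of 0.08 that turned to -0.17 with upper quartile scaling and -0.68 in deposited FPKM.

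The 10 models outside RefSeq genes had low footprints, apart from 1. Their RNA-seq means ran from 2.14 to 15.1 FPKM and the Ribo-seq means of the 9 called lower from 0 to 0.338. The most abundant, 186 bases of transcript across 55481 bases of chromosome 1 (32271001 to 32326481), had 14.8 and 15.3 FPKM of RNA and 0.676 and 0 of footprints, a difference of -3.08 ± 0.41 (SE; limma, adjusted p = 0.0072) whose call was lost with either RNA-seq library left out. It overlapped no other model. Like all 9 called lower, it met the abundance limit through RNA-seq alone, so the selection in part set its direction. The exception, 279 bases on chromosome 12, had 0 and 4.47 FPKM in the Ribo-seq libraries, which disagree. All 10 lengths were multiples of 3, as were 85.2% of the lengths of all tested models outside genes. Of smaller-span multi-exon models outside genes, 77.3% were called lower.

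More than 1 long model lay inside each of 5 RefSeq genes, and diaph2 was among them. Both models inside a gene on chromosome 11 were called lower, at -2.27 and -1.35. Pairs inside genes on chromosomes 12 and 23 had differences of -1.37 (called lower) and -0.06, and of -1.02 (called lower) and -0.37. The pair inside a gene on chromosome 16 had 0.14 and -0.80, neither called. The 2 inside diaph2, a formin gene, had differences of -0.58 (714 bases, not called) and 0.57 (1077 bases, called higher), with RNA-seq means of 6.98 and 8.67 FPKM. The higher call was lost with upper quartile scaling, and the difference turned to -0.15 in deposited FPKM. Such models share a gene and are not independent, and the difference between them was not tested.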

How the data were processed

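The authors deposited FPKM of 4 libraries for 93896 transcript models, per the file headers. TopHat2 2.1.0 and Cufflinks 2.2.1 were named, with no roles, per the submitters' processing notes. For build, annotation, strand use and the length used for footprints, nothing is stated in the sources used here. Locus intervals count from 0 in the table and are written from 1. Values include fractions of a read (smallest above 0: 2.2e-23), so whole reads were not recovered, and with depth unknown no counting error can be attached.

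Long models were those with a length below the span, a span of at least 50000 bases and a mean of at least 1 FPKM. The members, lists and alternatives were chosen with earlier results of these data known. Position classes, and names of genes that hold or overlap a model, were added after seeing the data.

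Names come from the RefSeq gene table of ASM223467v1 by position, without strand. Of all model ends, 2137 lay within 10 bp of a protein-coding gene end, against 62 after moving the models by 20000 bp, so the build was taken as the same. No genome or sequence table was used here.

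Each library was divided by its median ratio to the geometric mean (factors 1.40, 1.32, 0.651 and 0.925). log2(scaled FPKM + 1) of 50625 models was modelled by limma 3.58.1 under R 4.3.3 (eBayes with trend, assay as the single term, Benjamini-Hochberg over all models, called below 0.05), and the fit was tested on simulated data. Each long model was paired with the nearest unused smaller-span multi-exon model on log2(RNA-seq FPKM + 1) and log2 length.

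The rule for named genes took, among long models with a symbol, the 10 largest differences per direction among those called with a mean of at least 2 FPKM, above 0 in every library and with no overlap of the assays after scaling, the 5 widest, the 5 highest in RNA-seq and 3 per gene list; 6 and 1 genes met the first condition. Alternatives were other scalings, another pseudocount, other filters, the replicate block, each library left out and other matches. Python 3.11.15, numpy 2.4.6, pandas 2.3.3, scipy 1.17.1 and matplotlib 3.10.9 were used. The result of 1 gene of the lists is not reported here.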

Additional observations from a re-analysis of the deposited data

How the results depend on the processing

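Against 26 long models called higher and 49 lower, a median difference of -0.28 and one of -0.30 relative to matched models, upper quartile scaling gave a median of -0.47, and FPKM as deposited 10 higher calls, a median of -0.84 and -0.26 relative to matches. A pseudocount of 0.1 gave -0.43 and -0.44. At a mean of at least 5 FPKM, which leaves 39 long models, 16 were higher and 4 lower. Of all 21996 models tested at that limit, 9571 were higher and 4477 lower, so higher calls outnumbered lower ones there too. The median of the long models turned to 0.27 and the value relative to matches was -0.23. With a span of at least 100000 bases (4 models) the counts were 0 and 1 and the medians -0.60 and -1.45; for the 7 models that overlap no other they were 3 and 2, with 0.079 and 0.56; 1 model per locus gave -0.27 relative to matches. Other matches gave -0.20 (5 neighbours), -0.27 (within the position class), -0.33 (grid of quintiles) and 0.10 (on the mean of all libraries). Without single libraries, higher calls ranged from 2 to 34, lower calls from 24 to 52, the median from -0.32 to -0.15 and the value relative to matches from -0.30 to -0.18. The lower share of summed FPKM in Ribo-seq kept its direction in every alternative run. Causes of these moves were not tested, beyond the fewer models of the stricter limits.

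Over all tested models, against 12116 higher and 17048 lower, FPKM as deposited gave 2425 higher, no filter 28801 lower and a mean of at least 5 FPKM 4477 lower; without single libraries the ranges were 1529 to 16410 and 9458 to 17897. Of 23 list members 11 were called, 7 with a pseudocount of 0.1, 4 (of 11 left) at a mean of at least 5 FPKM, and 1 to 13 without single libraries. Of 15 named genes 9 were called, 5 (of 8 left) at that limit, and 1 to 7 without single libraries. Signs turned in uncalled genes: trps1 (-0.29 as deposited), mycbp2 (-0.19 with upper quartile scaling, -0.72 as deposited, -0.0090 to 0.34 without single libraries), stau2 (-0.17 and -0.68) and epha7 (-0.055 to 0.28 without single libraries, at 0.0011 without RNA-seq replicate 1 or Ribo-seq replicate 2).

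Replicate numbers are shared between the assays, but nothing says that they mark shared fish; deviations of same-numbered libraries correlated at 0.07 over 50625 models. With the replicate block, 22 long models were called higher and 47 lower, and of named genes tln1, dst and adarb1 lost their call and nfasc gained one. With 2 libraries per assay and unknown depth, models near 1 FPKM, and zeros in Ribo-seq, are the least certain values.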
